A study of Homo sapiens with 3 samples.

Results

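H3K9me3 domains that were cut into different numbers of regions in CXCL12-treated and untreated Jurkat cells are described here. Each library has a deposited list of broad H3K9me3 regions. On chromosomes 1 to 22, regions from both lists were linked into loci wherever they overlapped by 1 bp or more. A locus was kept when it held regions of both libraries but unequal numbers of them. This gave 2046 loci of 20639 shared loci (9.91%, exact binomial 95% interval 9.51 to 10.3%) and of 27966 loci in all. In 1198 of them the CXCL12 library had fewer regions than the control library, and these are called joined. In the other 848 it had more, and these are called split. The numbers of regions chose the loci, so that every length or signal set between the libraries below is a description and supports nothing by itself. Positions are in hg19 as deposited, except those of the promoter sequences. The label holds for all 2046 loci, since the numbers of regions are unequal in each by the rule.

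Jurkat is an established line from a T cell leukaemia. The treated cells received CXCL12 at 100 ng/ml for 15 min after 90 min without serum, and the control cells went through the same 90 min and received no CXCL12. Each condition has 1 library, made with an antibody to histone H3 trimethylated at lysine 9, and the input library was not analysed here. No difference therefore has a replicate check, treatment and library cannot be told apart, and no p-value is given. Neither depth nor scaling between the libraries is known, and region lists hold no measure by which the cell type could be checked.

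H3K9me3 is written by enzymes such as SUV39H1 and SETDB1, is bound by HP1 proteins and marks silent chromatin. It lies in broad domains over satellite and transposon repeats and over clusters of zinc finger genes, whose coding exons at the 3' end carry the mark while their promoters are often free of it. CXCL12 is the ligand of the chemokine receptor CXCR4, which T cells use to migrate. A caller of broad regions joins enriched windows across short gaps. A domain thus appears as 1 region or as several according to how wide the gaps between its enriched windows are.

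Among the loci with a gene start inside a gap of 1 library that the other library covered, the promoters of 4 genes are shown first, since there the splitting decides whether a gene start lies in a called region. They were chosen after their values were seen, as the promoters in RefSeq whose start keeps its distance to neighbouring gene starts within 100 bp of the deposited positions. Each runs from 250 bases before to 50 after the start in RefSeq (GRCh38.p14), 5' to 3' on the gene's strand, with CG dinucleotides in capitals. CG reads the same on both strands. The windows are chr7:150716363-150716662 (+) for GIMAP1, chr19:57527106-57527405 (+) for ZNF549, chr19:34773166-34773465 (-) for ZNF599 and chr19:57578862-57579161 (-) for ZNF416.
GIMAP1: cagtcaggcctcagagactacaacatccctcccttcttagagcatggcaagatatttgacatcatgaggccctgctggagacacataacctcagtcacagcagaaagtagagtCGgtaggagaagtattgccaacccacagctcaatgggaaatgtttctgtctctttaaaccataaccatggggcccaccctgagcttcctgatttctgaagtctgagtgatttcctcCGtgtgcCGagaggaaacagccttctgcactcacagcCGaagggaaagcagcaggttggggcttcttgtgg
ZNF549: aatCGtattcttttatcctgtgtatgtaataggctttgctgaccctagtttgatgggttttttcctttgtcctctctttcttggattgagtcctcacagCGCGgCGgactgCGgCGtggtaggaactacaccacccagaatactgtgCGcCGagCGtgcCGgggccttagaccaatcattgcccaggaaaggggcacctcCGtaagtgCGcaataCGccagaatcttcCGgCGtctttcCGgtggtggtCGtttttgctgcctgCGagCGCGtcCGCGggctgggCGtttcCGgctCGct
ZNF599: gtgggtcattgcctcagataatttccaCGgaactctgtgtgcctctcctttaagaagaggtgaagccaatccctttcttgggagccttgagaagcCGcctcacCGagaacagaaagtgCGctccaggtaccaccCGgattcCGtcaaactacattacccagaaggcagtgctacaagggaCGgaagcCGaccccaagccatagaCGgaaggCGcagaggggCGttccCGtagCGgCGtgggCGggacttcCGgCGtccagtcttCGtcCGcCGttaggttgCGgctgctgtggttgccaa
ZNF416: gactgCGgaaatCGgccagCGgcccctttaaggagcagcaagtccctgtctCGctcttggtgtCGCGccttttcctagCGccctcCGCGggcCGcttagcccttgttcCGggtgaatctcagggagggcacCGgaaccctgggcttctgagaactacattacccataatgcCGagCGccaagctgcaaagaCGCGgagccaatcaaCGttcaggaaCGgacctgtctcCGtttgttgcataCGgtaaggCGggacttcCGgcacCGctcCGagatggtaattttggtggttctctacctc

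The GIMAP1 window holds 4 CG dinucleotides, against 25 for ZNF549, 21 for ZNF599 and 24 for ZNF416. Among 35116 RefSeq promoters of the same length the median was 14, and among 713 promoters of zinc finger genes it was 22. As many CG or fewer were found in 29.6% of all promoters for GIMAP1 and in 69.9% for ZNF549. The 3 zinc finger promoters are thus near the median of their family, and that of GIMAP1 is poor in CG.

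Most of the loci differed by a single region. One CXCL12 region faced 2 control regions in 1043 joined loci, and 2 CXCL12 regions faced 1 control region in 770 split loci. The difference was 1 region in 1091 of the 1198 joined loci (91.1%, 89.3 to 92.6%) and in 798 of the 848 split loci (94.1%, 92.3 to 95.6%). A single CXCL12 region stood against 3 control regions at 66 joined loci, and 3 CXCL12 regions stood against 1 control region at 41 split loci. Joined loci made up 58.6% of the 2046 (56.4 to 60.7%). On chromosomes 1 to 22 the CXCL12 library had 149.8 Mb in 25935 regions and the control library 140.2 Mb in 25698 regions. The part of that extra called length in the excess of joined loci was not tested. The joined and split loci together held 30.2 Mb of CXCL12 regions (20.2%) and 28.9 Mb of control regions (20.6%).

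**Figure D1:**
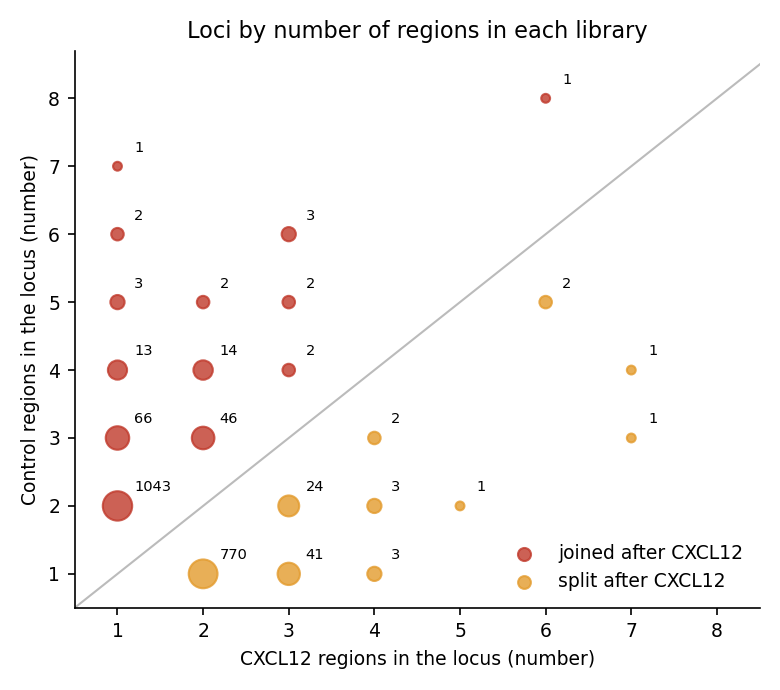
Loci with unequal numbers of regions by the number of CXCL12 regions (x axis) and control regions (y axis) in the locus, with the number of loci beside each point and point area growing with it. Joined loci lie above the diagonal and split loci below it, and 1043 and 770 loci sit at the 2 points next to the corner.

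The gaps that made the difference were short. Neighbouring regions of either library were never less than 800 bp apart, which is the narrowest gap in the lists. Within joined loci, 1420 control gaps were covered whole by a single CXCL12 region, with a median width of 800 bp, and 711 of them (50.1%) had exactly that width. Within split loci, 950 CXCL12 gaps were covered whole by a control region, again with a median of 800 bp, and 554 (58.3%) had that width. Only 122 of the joined gaps (8.59%) and 48 of the split gaps (5.05%) were wider than 2000 bp. The widest measured 7600 bp in a joined locus and 8000 bp in a split locus.

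Over all gaps of the 2 libraries, wide gaps were less often covered in the other library than narrow ones, apart from control gaps of 2000 bp beside those of 1800 bp (16.3%). Gaps of 800 bp were covered in 895 of 1351 cases (66.2%, 63.7 to 68.8%) where the control library had the gap, and in 750 of 1434 (52.3%, 49.7 to 54.9%) where the CXCL12 library had it. At 2000 bp the shares were 18.2% of 181 control gaps and 9.82% of 163 CXCL12 gaps. Between 2000 and 5000 bp they were 7.14% and 3.49%, and above 10000 bp 0 of 17955 control gaps and 0 of 18072 CXCL12 gaps were covered, which allows up to 0.021% and 0.020%. Control gaps were covered more often than CXCL12 gaps in each of the width classes up to 10000 bp.

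**Figure D2:**
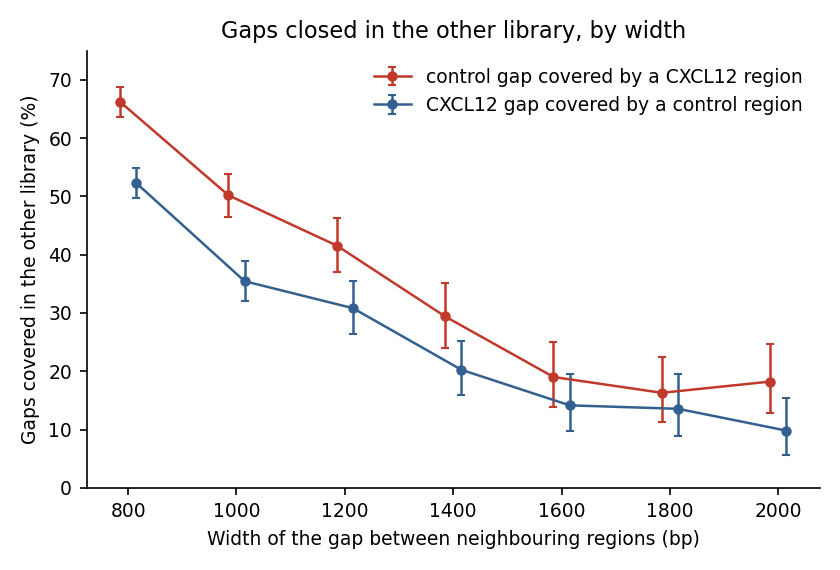
Share of gaps between neighbouring regions of 1 library that a single region of the other library covers whole (y axis, percent), by gap width (x axis, bp, up to 2000), with exact binomial 95% intervals over gaps. The share for control gaps goes from 66.2% at 800 bp to 18.2% at 2000 bp, and for CXCL12 gaps from 52.3% to 9.82%.

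A covered gap was rarely the place of strongest signal, as the choice of gaps makes likely. Each is a stretch left uncalled in the library that has the gap. The shares of highest bins are thus a description, and a depletion cannot be told from this choice. The highest bin of the covering CXCL12 region lay in the control gap in 44 of the 1420 joined cases (3.10%, 2.26 to 4.14%). The gap took up 12.1% of that region's length on average. In split loci the highest bin of the control region lay in the CXCL12 gap in 28 of 950 cases (2.95%, 1.97 to 4.23%), with 12.5% of the length in the gap. For gaps of 800 bp, the weaker of the 2 flanking regions had a median signal of 4.45 where a control region covered a CXCL12 gap and 4.20 where none did. For 800 bp gaps of the control library these medians were 4.37 where a CXCL12 region covered the gap and 4.21 where none did.

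In the loci with 1 region against 2, the pieces were unequal. The shorter piece measured 2400 bp at the median and the longer 5200 bp, in the 1043 joined and in the 770 split loci alike. The median signal was 4.69 in the shorter and 5.41 in the longer control piece of joined loci. In split loci it was 4.81 in the shorter and 5.81 in the longer CXCL12 piece. Both outer ends of the locus were the same in the 2 libraries at 34 joined loci (3.26%) and at 19 split loci (2.47%). Among the shared loci with 1 region in each library it was 615 of 18350 (3.35%), so that differing edges were the general state of the lists. Setting the single region against the stretch from the first to the last base of the pair, the difference had a median of 0 bp in joined loci (quartiles -800 and 1000 bp) and of -600 bp in split loci (quartiles -1800 and 350 bp).

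Signal is a deposited value per bin, a bin being 32.9 bp long at the median, and the mean signal of a locus is taken over all its called bins. Joined loci had a median mean signal of 5.40 in the CXCL12 library and 5.47 in the control library. Split loci had 5.74 in the CXCL12 library and 5.16 in the control library. The log2 ratio of CXCL12 over control had a median of 0.0028 at joined loci (exact 95% interval over loci -0.0073 to 0.013) and of 0.12 at split loci (0.11 to 0.14), against 0.041 over all shared loci. Centred on that last value, the joined median was below 0, at -0.038. Bins in a gap do not enter the mean of the library that has the gap. For the highest bin, the median log2 ratio was 0.081 at joined loci, 0.0995 at split loci and 0.072 over all shared loci.

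In both classes the library with fewer regions had the higher median called length. Bases in a gap are not called in the library that has the gap, so the choice of loci makes this likely. Joined loci had a median of 10200 bp called in the CXCL12 library and 8600 bp in the control library, and the median log2 ratio was 0.18. Split loci had 8400 bp in the CXCL12 library and 8800 bp in the control library, and the median log2 ratio was -0.064, against 0.070 over all shared loci. Summed signal was higher in the CXCL12 library at 990 joined loci (82.6%) and at 542 split loci (63.9%), with median log2 ratios of 0.16 and 0.073. Over all shared loci it was higher at 67.3%, with a median log2 ratio of 0.11, so that split loci lay below the shared loci as a whole.

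**Figure D3:**
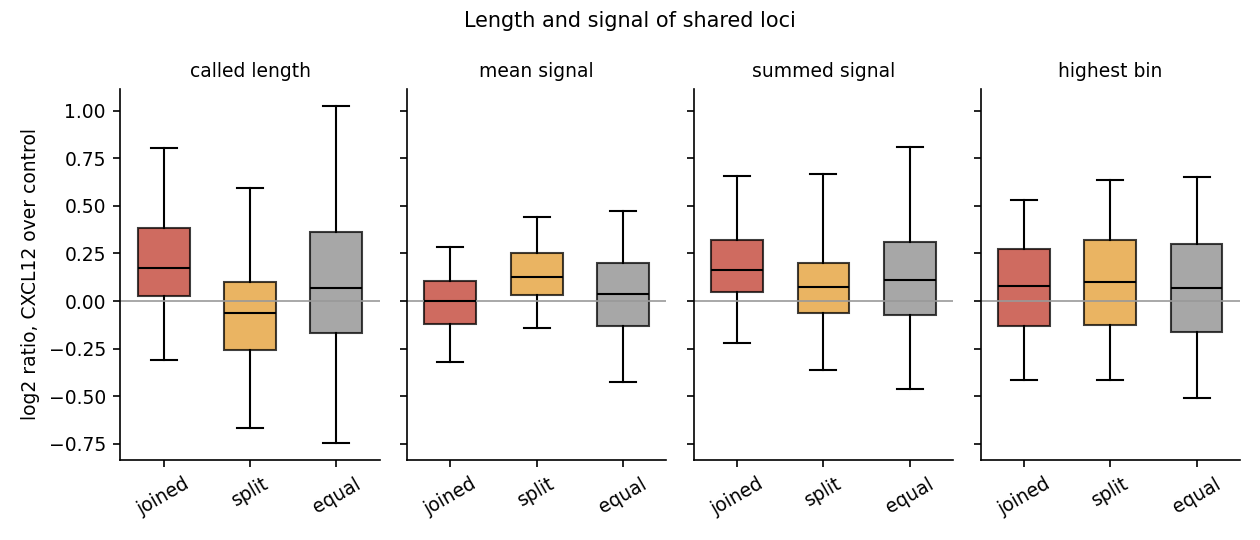
Log2 ratio of CXCL12 over control (y axis) for called length, mean signal, summed signal and highest bin in joined loci, split loci and shared loci with equal numbers of regions. Boxes span the quartiles with the median as a line, and whiskers run from the 5th to the 95th percentile of loci. The medians for called length are 0.18, -0.064 and 0.070, and for the highest bin 0.081, 0.0995 and 0.070.

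Changes of 2-fold were rare among these loci, which were longer at the median than all shared loci. They were rare too at the 243 shared loci with equal numbers of at least 2 regions in each library. There, called length, mean signal and summed signal were at least 2-fold higher or lower at 0 loci. Of all shared loci, 5.45% were at least 2-fold longer in the CXCL12 library and 2.73% at least 2-fold shorter. Among joined loci 31 (2.59%) were so much longer and 10 (0.835%) so much shorter, and among split loci 11 (1.30%) were longer and 11 shorter. Mean signal was at least 2-fold higher at 0.121% and at least 2-fold lower at 0.179% of shared loci. It was at least 2-fold higher at 0 joined and 0 split loci. It was at least 2-fold lower at 1 joined locus and 0 split loci, the joined one being at the PCDHA cluster described below. Summed signal was at least 2-fold higher at 11 joined and 13 split loci, with 2.81% of all shared loci as background, and at least 2-fold lower at 6 joined and 4 split loci, with 0.959% as background. The highest bin was at least 2-fold higher at 2 joined and 4 split loci (background 0.683%) and at least 2-fold lower at 4 joined and 1 split locus (background 0.276%).

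Joined and split loci were long, as a rule that asks for at least 3 regions in a locus makes likely. Joined loci spanned a median of 11000 bp and split loci 10000 bp, against 5400 bp for the 18593 shared loci with equal numbers, most of which had 1 region in each library. The 243 with equal numbers of at least 2 were longer still, with a median of 17000 bp. Joined and split loci were 0.776% of the shared loci of up to 4000 bp, 16.9% of those over 8000 and up to 10000 bp, 39.3% of those over 15000 and up to 20000 bp, and 63.1% of the 176 over 40000 bp. Joined loci outnumbered split loci in each of the 8 span classes, by 76 to 35 above 40000 bp and by 30 to 14 up to 4000 bp.

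**Figure D4:**
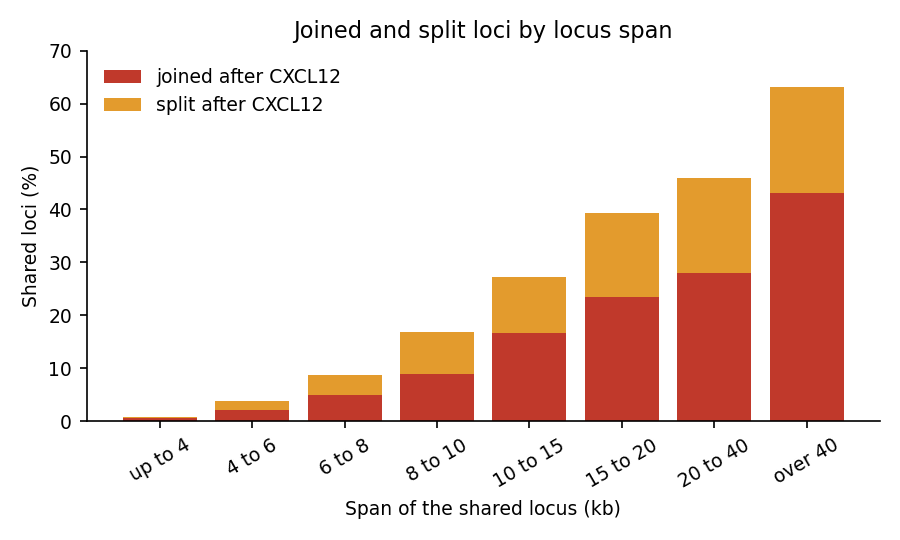
Share of shared loci that were joined or split (y axis, percent, stacked) by the span of the locus (x axis, kb). The total goes from 0.776% in the shortest to 63.1% in the longest class, and the joined part is the larger in each class.

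By chromosome, 19 stood apart. Of its 574 shared loci, 87 were joined and 50 split (23.9%, 20.4 to 27.6%), while the other chromosomes ranged from 6.04% on 17 to 12.1% on 7. Within span classes the difference from the other chromosomes went both ways. Joined and split loci were 2.68% of the chromosome 19 loci of up to 8000 bp, against 3.97% on the other chromosomes, and 27.9% of those over 8000 and up to 15000 bp, against 21.7%. They were 42.0% of those over 15000 and up to 40000 bp, against 42.3%, and 62.0% of those over 40000 bp, against 63.9%. Joined loci outnumbered split loci on 20 of the 22 chromosomes. The exceptions were chromosome 16, with 23 joined and 27 split, and chromosome 20, with 15 of each.

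Loci at zinc finger genes, DNA-binding factors of which many silence transposons, were joined or split more often than the average shared locus. Of 460 such loci, 84 were joined and 56 split (30.4%, 26.3 to 34.9%), against 9.91% of all shared loci, and their median span was 13700 bp. Between 8000 and 15000 bp the share was 33.0% of 88 zinc finger loci, against 21.7% of other loci. Above 40000 bp it was 56.6% of 106 zinc finger loci, against 72.9% of 70 other loci, so that the order of the 2 sets changed with span. At the joined zinc finger loci the median log2 ratio of mean signal was 0.040, and at the split ones 0.080.

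The largest difference in number in each direction was in a zinc finger cluster. At ZNF486 (chr19:20271800-20359799) a single CXCL12 region of 87800 bp faced 7 control regions with 81600 bp in all, and the widest covered gap measured 1600 bp. Mean signal there was 7.03 in the CXCL12 library and 7.37 in the control library, and the highest bin was 38 in both. The domain at ZNF91, a repressor of SVA transposons (chr19:23460800-23612799), was annotated both upstream and downstream of that gene. There 1 CXCL12 region faced 6 control regions, with a covered gap of 4800 bp and mean signals of 10.4 after CXCL12 and 10.3 in control. In the other direction, the domain of ZNF732 and ZNF141 at the end of chromosome 4 (chr4:244000-493199) had 7 CXCL12 regions and 3 control regions, over 241200 and 246400 bp. Its mean signal was 11.2 after CXCL12 and 10.8 in control. The domain of ZNF835 and ZIM2 (chr19:57168400-57293799) had 7 CXCL12 and 4 control regions, and that of ZNF404 and ZNF45 (chr19:44396800-44477799) had 5 and 2. Over these 5 domains the log2 ratio of mean signal lay between -0.07 and 0.09.

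**Figure D5:**
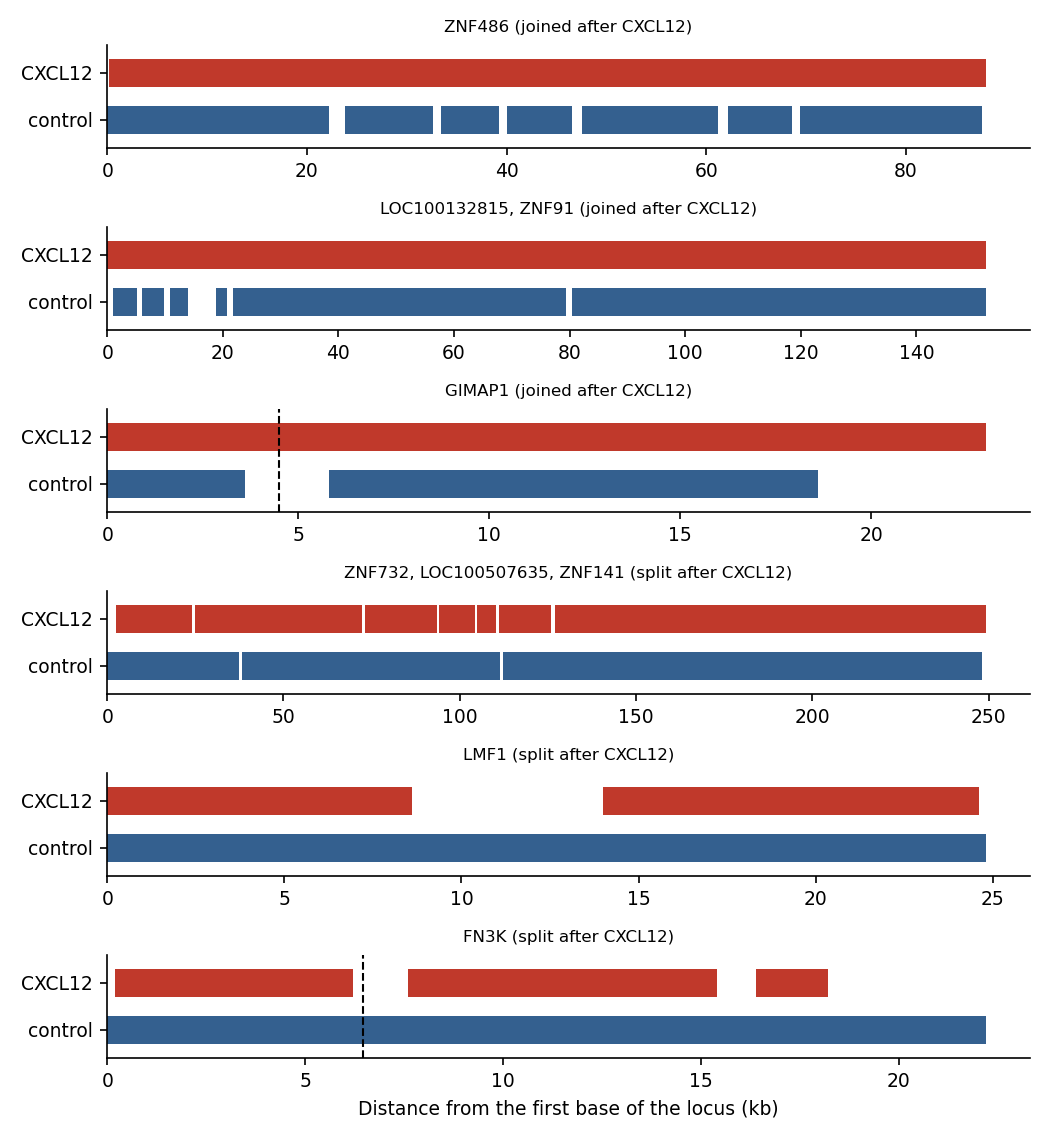
Called regions of the CXCL12 library (upper bars) and the control library (lower bars) at 3 joined and 3 split loci, by distance from the first base of the locus (x axis, kb). A dashed line marks the start of GIMAP1 and of FN3K. One CXCL12 region faces 7 control regions at ZNF486, and 7 CXCL12 regions face 3 control regions at ZNF732, with gaps that are narrow beside the domains.

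The longest joined locus spanned 391.8 kb (chr19:52800800-53192599) and had 10 annotated genes, ZNF480, ZNF610 and ZNF83 among them. In it 1 CXCL12 region covered a single 800 bp gap between 2 control regions. The next, at CHFR, a mitotic checkpoint ubiquitin ligase, and ZNF605 (chr12:133418400-133773799), had 2 CXCL12 and 3 control regions with highest bins of 160 and 108. At ZNF345 and ZNF568 (chr19:37373000-37540799), 1 CXCL12 region faced 4 control regions. Of the split loci, the longest after ZNF732 spanned 232.8 kb from ZNF331 over the microRNA cluster that holds MIR512-2 (chr19:54016800-54249599). It had 3 CXCL12 and 2 control regions with mean signals of 12.2 after CXCL12 and 12.1 in control. At these domains the libraries differed by cuts that were short beside the domain.

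The widest covered gaps at joined loci with a gene were between 5400 and 7600 bp. At KIR2DL4 and KIR3DL1, natural killer cell receptors (chr19:55314800-55331999), 1 CXCL12 region of 17200 bp covered a 7600 bp gap between 2 control regions that summed to 9400 bp. Its mean signal was 5.47, against 6.75 in the 2 control pieces, and the highest bin was 18 in both libraries. Inside KCNE1, a potassium channel subunit (chr21:35858600-35875599), the gap was 5400 bp and the highest bin 21 after CXCL12 and 16 in control. KCNE1 also held a split locus (chr21:35830600-35842399), with 2 CXCL12 regions against 1 control region across an 800 bp gap.

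The widest gap in the CXCL12 library that a control region covered was 8000 bp, upstream of ADAMTS2, a procollagen protease (chr5:178782400-178818399). There 23200 bp were called after CXCL12 and 35000 bp in control, at mean signals of 9.94 and 7.83. Inside LMF1, a lipase maturation factor (chr16:883000-907799), 2 CXCL12 regions lay 5400 bp apart under 1 control region of 24800 bp. This was the split locus of highest signal among those with a gene, with means of 31.7 after CXCL12 and 25.3 in control and highest bins of 86 and 82. Inside ALOX5, which makes leukotriene precursors (chr10:45885600-45893599), the CXCL12 gap was 4200 bp, with 3800 bp called after CXCL12 and 7200 bp in control. Inside SSBP2 (chr5:80918000-80925599) it was 4000 bp and summed signal had a log2 ratio of -1.04, with highest bins of 9 after CXCL12 and 12 in control. ADAMTS2 held joined loci too: at chr5:178711000-178755799, 1 CXCL12 region faced 2 control regions with mean signals of 10.9 after CXCL12 and 10.6 in control.

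In the other gene lists, joined and split loci were a minority, as they were at zinc finger loci (30.4%). Loci at uncharacterised LOC genes were joined in 90 and split in 65 of 1147 cases (13.5%). MicroRNA loci were joined in 8 and split in 5 of 76 cases, clustered protocadherin loci in 4 and 2 of 28, olfactory receptor loci in 6 and 3 of 74, and small nucleolar RNA loci in 2 and 1 of 9. Ion channel loci were joined in 8 and split in 2 of 121 cases, and solute carrier loci in 6 and 4 of 184. Loci of collagens, laminins and matrix proteases were joined in 9 and split in 3 of 117. Neurotransmitter receptor loci were joined in 3 and split in 5 of 66, and loci of cadherins and synaptic adhesion genes in 3 and 4 of 70. Receptor-type tyrosine phosphatase loci were joined in 3 and split in 0 of 50, and all 3 lay inside PTPRN2. Chemokine, interleukin and receptor loci were joined in 1 and split in 2 of 51 cases, and the 21 loci at keratins and related skin genes were joined or split in 0 cases (exact upper limit 16.1%). The interval of the joined and split share lay above the 9.91% of all shared loci for LOC genes (11.6 to 15.6%). It lay below for solute carriers (2.64 to 9.77%), and it included 9.91% in each of the other lists. LOC loci had a median span of 6400 bp, against 5600 bp for all shared loci, and some also carried zinc finger genes. The part of span and of zinc finger genes in the LOC share was not tested.

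Downstream of IL20, a cytokine of the IL-10 family (chr1:207044000-207048199), 1 CXCL12 region faced 2 control regions, with means of 5.00 after CXCL12 and 4.55 in control. Upstream of IL21R, the receptor of interleukin 21 (chr16:27392800-27404199), 2 CXCL12 regions faced 1 control region, with means of 5.57 and 6.61 and highest bins of 14 and 19. In the clustered protocadherins, adhesion proteins chosen cell by cell in neurons, the PCDHA cluster held a short joined locus (chr5:140226000-140231599). One CXCL12 region of 5600 bp faced 2 control regions with 1800 bp in all, so that the mean was 9.22 after CXCL12 and 22.2 in control while the highest bins were 39 and 41. Its log2 ratio was -1.27 for the mean and 0.17 for the sum.

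Some genes held runs of such loci, and these genes were singled out after their values were seen, as those with at least 5 joined or split loci. In all 1106 genes were annotated at a joined or split locus, 930 of them at a single one, and 88 at loci of both classes. Joined and split loci were 9.91% of all shared loci and a larger share of long ones. The part of locus span in the counts per gene was not tested. SNRPN, an imprinted splicing protein gene of the Prader-Willi region, had 7 joined and 6 split loci among its 23 shared loci (chr15:25023800-25679999). UBE3A, the neighbouring ubiquitin ligase gene of Angelman syndrome, was annotated at 5 of the same 13 loci, 2 joined and 3 split. The first 4 SNRPN loci alternated between the classes. At chr15:25023800-25073199, 1 CXCL12 region faced 3 control regions, with mean signals of 6.27 after CXCL12 and 6.34 in control. At chr15:25076200-25089799, 2 CXCL12 regions faced 1 control region, with means of 7.86 and 6.75. At chr15:25110400-25160799, 1 CXCL12 region faced 3 control regions, with means of 5.66 and 6.27, and at chr15:25172800-25206599, 3 CXCL12 regions faced 1 control region, with means of 7.05 and 6.08.

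One of the SNRPN loci had the highest mean signal of all joined loci with a gene. Over the SNORD115 small nucleolar RNA repeats (chr15:25402200-25503399), a CXCL12 region of 101200 bp covered a 1000 bp gap between 2 control regions. The other 12 loci had means between 3.83 and 7.86 after CXCL12 and between 3.74 and 6.75 in control. Of the 13, 12 had a higher summed signal and 9 a higher mean signal after CXCL12. Over all shared loci these shares were 67.3% and 57.3%. By class, summed signal was higher at 82.6% of all joined and 63.9% of all split loci, and mean signal at 50.9% and 81.5%. The log2 ratios of the mean lay between -0.15 and 0.22 over the 13 loci.

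FHIT, a tumour suppressor gene in a common fragile site, also had 13 such loci, but of 59 shared loci (chr3:60092400-60973399). Of the 13, 11 were joined and 2 split, while 58.6% of all 2046 loci were joined. Each joined FHIT locus had 1 CXCL12 and 2 control regions. They were short and weak, from 5.2 to 15.4 kb over the 13 loci, with means between 3.01 and 5.35 after CXCL12 and between 3.09 and 5.30 in control. At chr3:60490400-60496999, 6600 bp were called after CXCL12 and 4400 bp in control, and the summed signal was 1.02 higher on the log2 scale after CXCL12. Of the 13 loci, 11 had a higher summed signal and 5 a higher mean signal after CXCL12. Over all joined loci these shares were 82.6% and 50.9%, over all split loci 63.9% and 81.5%, and over all shared loci 67.3% and 57.3%.

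WDR70, a WD repeat protein gene, had 4 joined and 4 split loci among its 12 shared loci (chr5:37469400-37746399). LARGE and ISPD, which encode enzymes of dystroglycan glycosylation, had 4 joined and 1 split each, among 7 and 22 shared loci. The LARGE loci reached 107.6 kb, and at chr22:34073000-34180599, 3 CXCL12 regions faced 6 control regions with means of 7.32 after CXCL12 and 7.21 in control. TMEM132D, a membrane protein gene, had 4 joined and 1 split of 30 (chr12:129866800-130352799). At its joined locus chr12:130183400-130197599, 14200 bp were called after CXCL12 and 8600 bp in control, with means of 5.90 and 7.39. Loci next to each other in 1 gene share its chromatin and are not independent of each other.

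Gene starts rarely lay in the covered gaps. They were placed in hg19 from the deposited distances for 6448 of 7655 genes (84.2%). In joined loci 8 of the 1420 covered control gaps (0.563%, 0.244 to 1.11%) held a start, of 9 genes in all, 4 of them zinc finger genes. In split loci 3 of the 950 covered CXCL12 gaps (0.316%, 0.065 to 0.920%) held one. Over all loci and gaps of up to 5000 bp, 13 of 1777 covered control gaps (0.732%) held a gene start, against 85 of 3641 that were not covered (2.33%). For CXCL12 gaps the counts were 7 of 1348 covered (0.519%) and 73 of 4153 not covered (1.76%). Covered gaps were the narrower ones, and the part of gap width in this difference was not tested.

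At GIMAP1, a lymphocyte GTPase needed by T and B cells, the start (chr7:150413698) lay in a control gap of 2200 bp, the widest of these gaps. The CXCL12 library had 1 region of 23000 bp (chr7:150409200-150432199) whose mean was 9.16 and whose highest bin was 46. The control library had 3600 bp before the gap (mean 6.62, highest bin 13) and 12800 bp after it (mean 11.4, highest bin 44). The log2 ratio for the locus was -0.18 for the mean and 0.30 for the sum. At TLR1, a receptor of bacterial lipopeptides, the start (chr4:38806412) lay in a control gap of 1200 bp. The CXCL12 region (chr4:38800800-38809799) had 7.76 as its mean and 39 as its highest bin. The 2 control regions had means of 10.1 and 4.38 and highest bins of 34 and 10.

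The zinc finger genes of joined loci were ZNF549 (start at chr19:58038693, control gap 1000 bp), ZNF599 (chr19:35264134, 1400 bp), and ZNF559 and ZNF177, whose starts lay in a single gap of 800 bp (chr19:9434928 for ZNF559). At ZNF549 the CXCL12 region of 57600 bp had a mean of 15.8, against 12.1 and 16.7 in the control regions before and after the gap. At ZNF599 the CXCL12 region had a mean of 10.7, against 10.6 and 6.05. NKX6-2, a homeobox factor of the nervous system (chr10:134599537), PCDHGA8 (chr5:140771483) and BAGE3 (chr21:11058323) made up the rest, in gaps of 800, 800 and 1200 bp. In split loci the starts were those of FN3K, ZNF835 and ZNF416. FN3K encodes fructosamine-3-kinase, which removes sugar adducts from proteins. Its start (chr17:80693452) lay in a CXCL12 gap of 1400 bp, 252 bp from the gap's first base, and the 2 CXCL12 regions beside the gap had means of 12.5 and 10.8, against 8.72 in the control region. At ZNF416 (chr19:58090243), in a CXCL12 gap of 800 bp, the CXCL12 regions had means of 22.6 and 16.9, and the control region 16.9. In 0 of these 11 gaps did the covering region have its highest bin, which the choice of gaps again makes likely.

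A gap could also run against the class of its locus, since a long domain can be cut in both libraries at different places. In the joined locus of CHFR and ZNF605, the start of ZNF84 (chr12:133613878) lay in a CXCL12 gap of 800 bp that a control region covered. In the split locus of ZNF331, that of MIR512-2 (chr19:54169927) lay in a control gap of 800 bp that a CXCL12 region covered. Joined loci held 81 covered CXCL12 gaps beside their 1420 covered control gaps, and split loci 45 covered control gaps beside their 950 covered CXCL12 gaps.

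Genes were annotated about as often at joined and split loci as at the rest. Over all spans, CpG islands were annotated more often at both classes, and promoters at joined loci. A gene was annotated at 47.7% of joined loci (44.9 to 50.6%), 45.2% of split loci (41.8 to 48.6%) and 47.6% of shared loci with equal numbers. A promoter was annotated at 13.2% of joined (11.3 to 15.2%), 10.6% of split (8.62 to 12.9%) and 9.04% of equal loci. The interval of split loci thus includes the share of equal loci. A CpG island was annotated at 10.1%, 8.49% and 4.73%. Among loci over 8000 and up to 15000 bp the equal loci had the highest shares: a promoter was annotated at 9.16% of 513 joined, 6.63% of 377 split and 11.7% of 3169 equal loci. In the same span class a CpG island was annotated at 4.87%, 4.77% and 7.98%.

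Loci without any annotated gene were 626 of the joined and 465 of the split loci. The longest joined ones were chr19:57370600-57570799, with 2 CXCL12 and 3 control regions at a mean of 10.3 in both libraries, and chr4:190470000-190656399, also with 2 and 3, at 16.2 after CXCL12 and 15.3 in control. The longest split ones were chr12:31973800-32067199 and chr7:4329800-4389999, each with 2 CXCL12 regions and 1 control region. At the joined locus without a gene that had the widest covered gap, chr2:83056400-83066799, a CXCL12 region covered a control gap of 6600 bp. There 9400 bp were called after CXCL12 and 3800 bp in control, at means of 3.53 and 3.88. At chr14:70954200-70970199, a control region covered a CXCL12 gap of 6600 bp, with 9400 bp called after CXCL12 and 15600 bp in control, at means of 8.78 and 7.65.

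The smallest overlap that linked a CXCL12 with a control region was 200 bp, in 47 joined (3.92%) and 36 split loci (4.25%). Just inside the rule, chr1:168416200-168435599 was joined, with 2 CXCL12 and 3 control regions and means of 6.0 and 5.34. The split locus chr1:198971800-198977999, with 2 CXCL12 regions and 1 control region, had means of 3.33 and 2.83. Just outside it, 72 pairs of neighbouring regions of the 2 libraries touched without sharing a base. In the first pair, the CXCL12 region chr1:14800400-14806799 had a mean of 4.70 and the control region chr1:14794200-14800399 a mean of 3.33.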

How the data were processed

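Per the submitters' processing notes, the authors used BWA 0.7.12, SICER 1.1 and the build hg19. Settings, depth, scaling and any use of the input are unknown here. The deposited signal comes, per the file headers, as an average per region and as the value at its highest bin. Lengths and positions move in steps of 200 bp, and coordinates are as deposited, with their counting origin unknown. CXCL12 and control have 1 library each, by the treatment label, so p-values were not computed and intervals (95%, exact binomial for shares, order-statistic for medians) cover only the spread over loci or gaps. With the depth unknown, no counting interval could be given for signal.

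Regions were chained on chromosomes 1 to 22 with Python 3.11.15, pandas 2.3.3, NumPy 2.4.6 and SciPy 1.17.1, and figures drawn with matplotlib 3.10.9. The chaining was tested on simulated regions with known answers. The mean of a locus weights regions by their bins, and log2 ratios carry no pseudocount. A covered gap lies between neighbouring regions of 1 library and inside a single region of the other, and counts within joined and split loci take only gaps whose 2 flanking regions belong to that locus. Gene starts were placed from the highest bin and the deposited signed distance, where at least 2 highest bins gave the same start. A further 1204 genes had 1 highest bin and 3 gave several starts. Another 52 gene entries that a spreadsheet had turned into numbers were left out. Of 23 genes with a start in a covered gap, 17 matched a RefSeq promoter (GRCh38.p14), and no coordinate was converted between builds. The difference between the 2 builds' starts was set against the median of the 5 nearest genes.

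The loci and gene lists were chosen with earlier results of these data known. Loci with a gene were named, within each class, for being among the 5 with the largest difference in number of regions, the widest covered gap, the longest span or the highest mean signal, or among the 3 of highest signal per gene list. Of loci without a gene, the 2 longest and the 2 with the widest covered gap were named. Alternatives were a stricter overlap, merging of close regions, leaving out weak or short regions or chromosome 19, only loci with 1 region against 2, genes by gene body, and other signal measures.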

Additional observations from a re-analysis of the deposited data

How the results depend on the processing

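No paired analysis was possible because each group has 1 library and no test was run. For the same reason no library could be left out. Merging neighbouring regions less than 1000 bp apart gave 894 joined and 544 split loci, and less than 2000 bp apart 564 and 311. The joined share was then 62.2% and 64.5%, the median covered gap 1200 and 2800 bp in both classes, and the median log2 length ratio 0.23 and 0.35 at joined and -0.14 and -0.27 at split loci. With an overlap of at least 50% of the shorter region the joined share was 61.2%, and the length ratios were 0.21 and -0.12. Regions at or above the 25th percentile of mean signal left 662 joined and 475 split loci, with a median log2 ratio of the mean that turned to -0.012 at joined loci and was 0.14 at split loci, where the length ratio was -0.097. Regions of at least 2000 bp gave ratios of the mean of 0.021 and 0.11 and of length of 0.11 and -0.022, and at split loci a promoter in 13.5% and a CpG island in 10.6%. Centred on all shared loci, the ratio of the mean was -0.038 at joined and 0.084 at split loci. Its sign at joined loci therefore depends on scaling, which is unknown. With the highest bin it was 0.081 and 0.0995, and with the sum 0.16 and 0.073. Without chromosome 19 a promoter was annotated at 9.63% of joined and 8.52% of split loci, a CpG island at 7.29% of joined loci, and 11.8% of zinc finger loci were joined. In the other 71 recomputed values of the principal results the change was within the interval or 1.5 times the count. Merging left no gap narrower than its limit, so the wider median covered gap follows from that setting. The cause of the other changes was not tested.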

Other observations

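Chromosome X, outside the rule, held 56 joined and 33 split loci of 831 shared loci (10.7%, 8.69 to 13.01%), with a median span of 4000 bp.

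Equal numbers of regions did not always mean the same cuts. Of the 18593 shared loci with equal numbers, 243 had at least 2 regions in each library, and in all 243 each library had a gap that a region of the other covered, as follows from the chaining. Their median span was 17000 bp, and their median log2 ratio of mean signal was 0.081. Shared loci with equal numbers held 9 of the 23 gene starts found in covered gaps. The start of ZNF570 (chr19:37959982) lay in a control gap of 800 bp and that of ZNF569 (chr19:37958339) in a CXCL12 gap of 800 bp, in the same domain. ZNF529 and ZNF382 had their starts in 1 control gap of 1600 bp. These genes were singled out after their values were seen.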
